A study of Mus musculus with 48 samples.

Results

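The clustered protocadherin genes were examined across 48 libraries of mouse cerebral cortex. They were taken as every row of the deposited count table whose symbol begins with Pcdha, Pcdhb, Pcdhga, Pcdhgb or Pcdhgc and carries an isoform number or letter of the clustered family. This gave 59 rows of 48795 in all, with 14 in the alpha cluster, 22 in the beta cluster and 23 in the gamma cluster. Of these, 56 passed the filter on low counts (at least 10 counts in enough libraries), as did 19547 genes in all, so 56 members were tested. In GRCm38 all annotated members lie on the plus strand of chromosome 18, with the alpha cluster at 36930184 to 37187661, the beta cluster at 37264938 to 37524479 and the gamma cluster at 37661793 to 37841873.

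Clustered protocadherins are cadherin-like adhesion proteins of the neuronal surface. Each alpha or gamma gene joins its own large variable exon to constant exons shared by its whole cluster, whereas each beta gene is a single large exon with no constant part. Neurons switch on a small, largely random choice of the variable isoforms from promoters bound by CTCF and cohesin, and proteins of the same isoform bind each other between membranes, so that neurites of the same cell recognise and avoid one another. The 5 C-type isoforms (Pcdhac1, Pcdhac2, Pcdhgc3, Pcdhgc4 and Pcdhgc5) stand at the 3′ ends of the alpha and gamma clusters and are switched on more uniformly, by cell type rather than by chance.

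All animals were 12-month-old C57BL/6 mice, in 6 genotype groups of 8 (4 females and 4 males each), labelled Q140, Q140 Msh3+/-, Q140 Msh3-/-, Msh3+/-, Msh3-/- and WT. Q140 is an Htt knock-in allele with an expanded CAG repeat, carried as a single copy, and Msh3 encodes a mismatch repair protein on which expansion of such repeats depends. The text on extraction in the labels speaks of striatum at another age, while all other labels give cortex at 12 months. The striatal markers Drd1, Adora2a, Gpr6, Rgs9 and Drd2 summed to 17.3 ± 1.29 CPM (counts scaled to library size; SD, n = 48).

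Library totals ran between 37.7 M and 68.3 M counts (M for mega). Gene-wide Msh3 counts were higher, not lower, in the mutants: 95.3 ± 8.03 CPM in libraries labelled Q140 Msh3-/-, 99.2 ± 8.15 in Msh3-/-, 57.9 ± 3.01 in Q140 Msh3+/-, 60.1 ± 3.06 in Msh3+/-, 21.8 ± 0.979 in Q140 and 22.4 ± 1.16 in WT (SD, n = 8 each), with no overlap between the 3 Msh3 genotypes. The altered part of the gene is not given in the sources used here, so the Msh3 genotypes are used as labelled. Htt had a log2 difference of -0.04 ± 0.02 in Q140 averaged over Msh3 genotype (SE, adjusted p = 0.364). Choroid plexus or pituitary markers summed to more than 8 times their median over the 48 libraries in Msh3+/- M1, Msh3+/- M2, WT M2 and WT M3. WT F3 and WT F4 carry name prefixes of a form that no other library has. Calls between the sexes are also given without these libraries. Many libraries share a name prefix, also across genotypes, and what a prefix stands for is not given in the sources used here. Nearly all shared prefixes hold libraries of a single sex, so prefix and sex are largely nested. The main fits had no term for prefix and took all libraries as independent.

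Of the 5 C-type isoforms, Pcdhgc5, Pcdhgc3 and Pcdhac2 had the highest levels of the family, as the plot of levels in genomic order shows. On the deposited FPKM scale (fragment counts scaled for exon length and library size) Pcdhgc5 was highest with a mean of 18.3 ± 0.992, followed by Pcdhgc3 with 12.2 ± 0.755 and Pcdhac2 with 8.43 ± 0.56 (SD, n = 48). Pcdhgc5 is known in rodents to bind a GABA-A receptor subunit, Pcdhgc3 limits Wnt signalling and shapes dendrites through Axin1 in mice, and Pcdhac2 spaces serotonergic axons in mice. The lengths behind these values equal the full GENCODE M21 exon length of all 58 annotated members, constant exons included. Pcdhgb8, which carries the gamma constant exons too, had at most 15 counts, so reads from shared exons were not counted for each member. FPKM therefore understates alpha and gamma members relative to beta members.

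**Figure D1:**
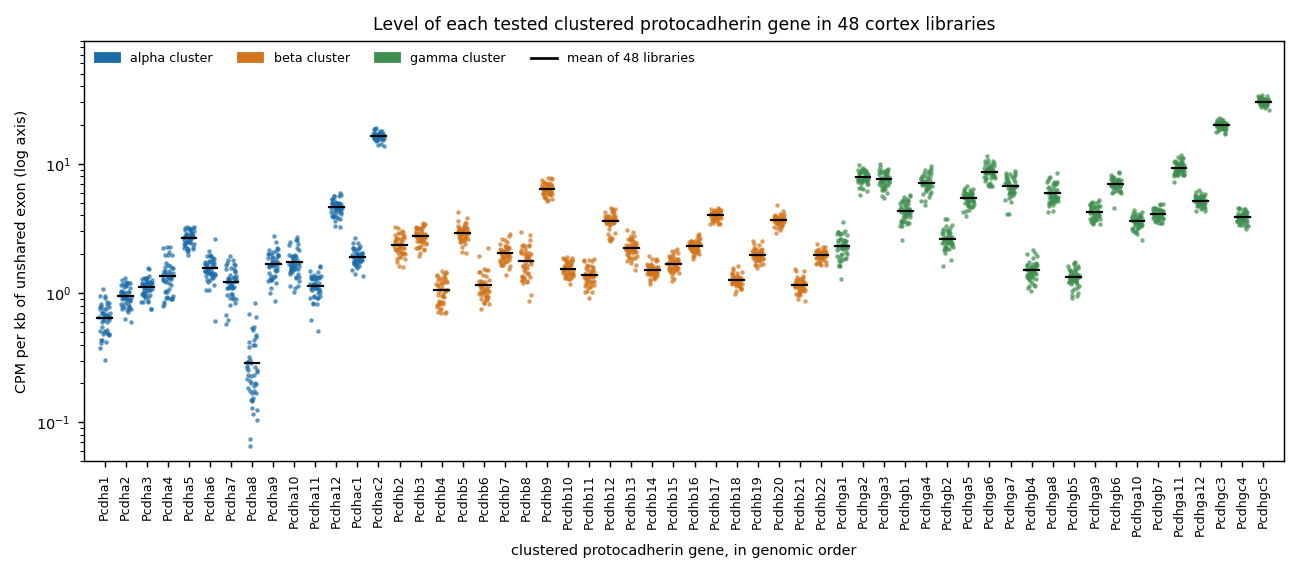
CPM per kilobase of exon not shared with another annotated gene (log axis) for the 56 tested members in genomic order, with 1 point per library and a bar at the mean of 48 libraries. Pcdhgc5, Pcdhgc3 and Pcdhac2 stand above all others, and Pcdha8 is lowest with the widest spread.

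Levels between members are therefore compared as CPM per kilobase of unshared exon. On that scale Pcdhgc5 had 30.4 ± 1.73, Pcdhgc3 19.9 ± 1.24 and Pcdhac2 16.4 ± 1.1 (SD, n = 48), so the same 3 C-type isoforms led. Pcdhgc4, which neurons of the mouse need to survive, had 3.86 ± 0.358 and Pcdhac1 had 1.91 ± 0.269, both within the range of the variable isoforms. The medians of the tested members were 1.46 in the alpha cluster, 1.99 in the beta cluster and 5.44 in the gamma cluster. By FPKM the leading variable isoforms were Pcdha12 (2.14 FPKM) and Pcdha5 (1.21) in the alpha cluster and Pcdhga11 (5.19) in the gamma cluster, and in the beta cluster Pcdhb9 (6.38), Pcdhb17 (4) and Pcdhb20 (3.66).

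The low end of the family held genes with almost no reads. Pcdhb1 had 0 to 10 counts per library and a mean of 0.025 FPKM, and Pcdhgb8, which the annotation calls a polymorphic pseudogene, had 0 to 15 counts and 0.015 FPKM. A second row named Pcdhgb8 had 0 counts in all 48 libraries. These 3 rows were not tested. Next came Pcdhb4 (1.05 FPKM) in the beta cluster, Pcdhgb5 (0.91) in the gamma cluster, and Pcdha4 (0.117) and Pcdha8 (0.133) in the alpha cluster. The low value of Pcdha4 is tied to its annotation: only 0.494 kb of its exons lie outside another gene model on the same strand, and per unshared kilobase it had 1.37 ± 0.397, near its neighbours. Pcdha8 stayed lowest at 0.287 ± 0.168.

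In summed CPM over all members the gamma cluster made up 61.9% of the family (range 58.1 to 64.9%), the beta cluster 25.3% of the family (range 22.7 to 29%) and the alpha cluster 12.8% of the family (range 12.1 to 14.2%) over 48 libraries. Pcdhac2 gave 49.5 ± 1.8% of alpha counts, and Pcdhgc5 gave 29 ± 1.27% of gamma counts (SD, n = 48). These shares are of counts and not of molecules per length.

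Pcdhgc5, Pcdhgc3 and Pcdhac2 had the least spread between libraries, and Pcdha8 the most. The biological coefficient of variation (BCV, the spread between libraries beyond counting noise, after genotype and sex were fitted) was lowest in Pcdhgc5 (0.0549), Pcdhgc3 (0.0592) and Pcdhac2 (0.0628), while Pcdhgc4 had 0.084 and Pcdhac1 0.126. The 51 other tested members had a median BCV of 0.124, against 0.0628 for the 5 C-type isoforms and 0.0963 for all 19547 genes. Since BCV depends on level, each member was also ranked among genes within 0.25 log2 CPM of its own level: 49 of the 56 lay above the median of such genes, and 14 above the 90th percentile, with 6 in the alpha, 1 in the beta and 7 in the gamma cluster and none of C type. By this rank the C-type isoforms lay between the 59.1 and 67.6 percentile, above members such as Pcdhb10 (13.3) and Pcdhb18 (16.2).

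The most variable member of each cluster was Pcdha8 (BCV 0.357, 0.162 to 2.06 CPM over the 48 libraries), Pcdhb8 (0.251, 3.04 to 10.4 CPM) and Pcdhga8 (0.161, 10.6 to 21.2 CPM). Among beta members Pcdhb17 varied least (BCV 0.0745, 16 to 21.3 CPM). Outside the C-type isoforms, the highest library was more than 2 times the lowest in 10 of 12 alpha, 8 of 21 beta and 6 of 18 gamma members. Unlike BCV, this ratio includes counting noise, which is larger at the low counts of many alpha members. Pcdha3, for example, reached 2.07-fold with a BCV at the 47.1 percentile of genes of like level. Single libraries carried part of these extremes. WT F4 was the highest of all libraries for 6 of 56 members (10.7%, against 1.84% of all tested genes): Pcdhb6, Pcdhb11, Pcdhga4, Pcdhga7, Pcdhga8 and Pcdhga9. WT M4 was the lowest for 9 members (16.1%, against 1.61%), with Pcdhac2 and Pcdhgc5 among them, and Q140 Msh3+/- M1 for 6 (10.7%, against 1.13%).

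Summed over each cluster, the 6 genotypes had overlapping totals. Alpha totals were 101 ± 5.59 CPM in Q140, 99.3 ± 8.21 in Q140 Msh3+/-, 103 ± 2.68 in Q140 Msh3-/-, 103 ± 6.04 in Msh3+/-, 95.8 ± 3.54 in Msh3-/- and 100 ± 8.49 in WT (SD, n = 8 each). Beta totals were 196 ± 8.3 CPM in Q140, 190 ± 12 in Q140 Msh3+/-, 197 ± 8.91 in Q140 Msh3-/-, 205 ± 10.9 in Msh3+/-, 193 ± 16 in Msh3-/- and 205 ± 17.5 in WT. Gamma totals were 484 ± 14.9 CPM in Q140, 478 ± 22.3 in Q140 Msh3+/-, 482 ± 16 in Q140 Msh3-/-, 499 ± 21.8 in Msh3+/-, 477 ± 16.7 in Msh3-/- and 480 ± 26.9 in WT. The ranges of the 6 groups overlapped in every cluster, and no test was run on the sums.

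**Figure D2:**
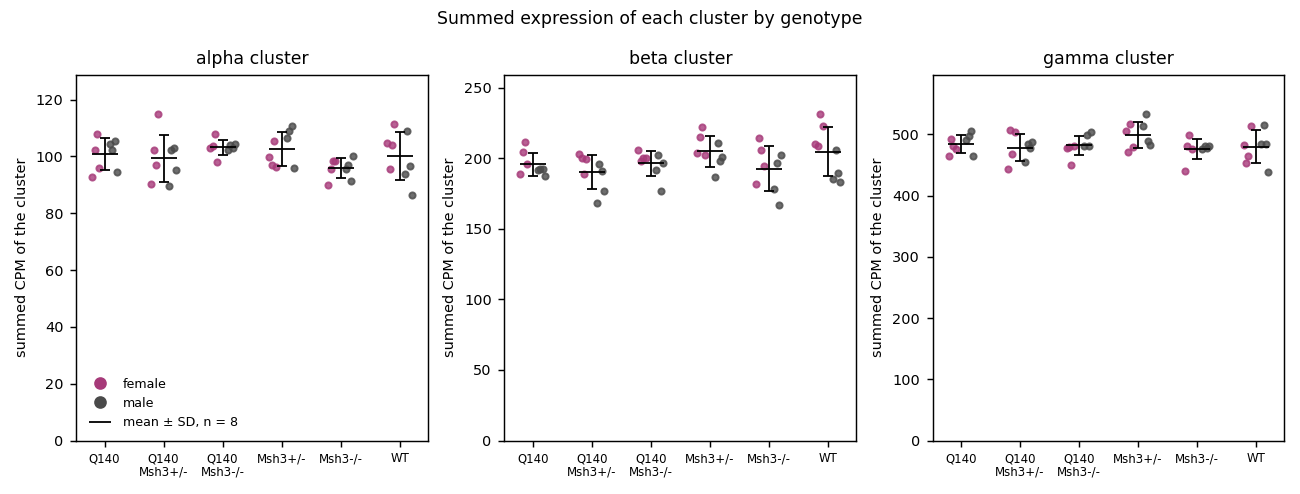
Summed CPM of the alpha, beta and gamma clusters in each library, by genotype, with females left of males and bars at the mean ± SD of 8 libraries. The ranges of the 6 genotypes overlap in each panel, and female points lie higher in the beta panel (205 ± 11.5 CPM in 24 females, 190 ± 11.2 in 24 males).

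No member passed the adjusted threshold in any genotype comparison. With edgeR's quasi-likelihood test and Benjamini-Hochberg adjustment over all 19547 genes, 0 of 56 members were called in Q140 against WT, where 0.102% of all genes were called, and 7 had an unadjusted p under 0.05. The same count of 0 was found in Msh3+/- against WT (0.0307% of all genes called, 2 members under 0.05 unadjusted) and in Msh3-/- against WT (0.113%, 6 members). Within Q140 animals it was 0 for Q140 Msh3+/- against Q140 (0.0307%, 1 member) and for Q140 Msh3-/- against Q140 (0.102%, 3 members). For Q140 on a mutant background it was 0 for Q140 Msh3+/- against Msh3+/- (0.0512%, 5 members) and for Q140 Msh3-/- against Msh3-/- (0.0205%, 5 members).

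Averaged comparisons, which use more libraries, gave the same count. Q140 averaged over Msh3 genotype called 0 members at a background of 1.47% of all genes, with 9 members under 0.05 unadjusted. Libraries with and without Q140 were uneven over plate columns. Column 1 held 7 with Q140 and 1 without, and column 3 held 2 with and 6 without. With plate column as a factor this comparison also called 0 members. Msh3+/- averaged over Q140 status called 0 (0.0512% of all genes, 1 member unadjusted), and Msh3-/- averaged over Q140 status called 0 (0.215%, 4 members). The interactions of Q140 with Msh3+/- and with Msh3-/- called 0 members and 0% of all genes, with 2 and 4 members under 0.05 unadjusted. A test of any difference among the 6 genotypes called 0 members at a background of 0.45%, with 7 under 0.05 unadjusted. DESeq2 and limma also called 0 members in these comparisons, except that DESeq2 called Pcdhb12 in Msh3-/- averaged over Q140 status. Over the 12 genotype contrasts, 7.29% of the member values had an unadjusted p under 0.05, against 8.07% of the values of all genes.

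**Figure D3:**
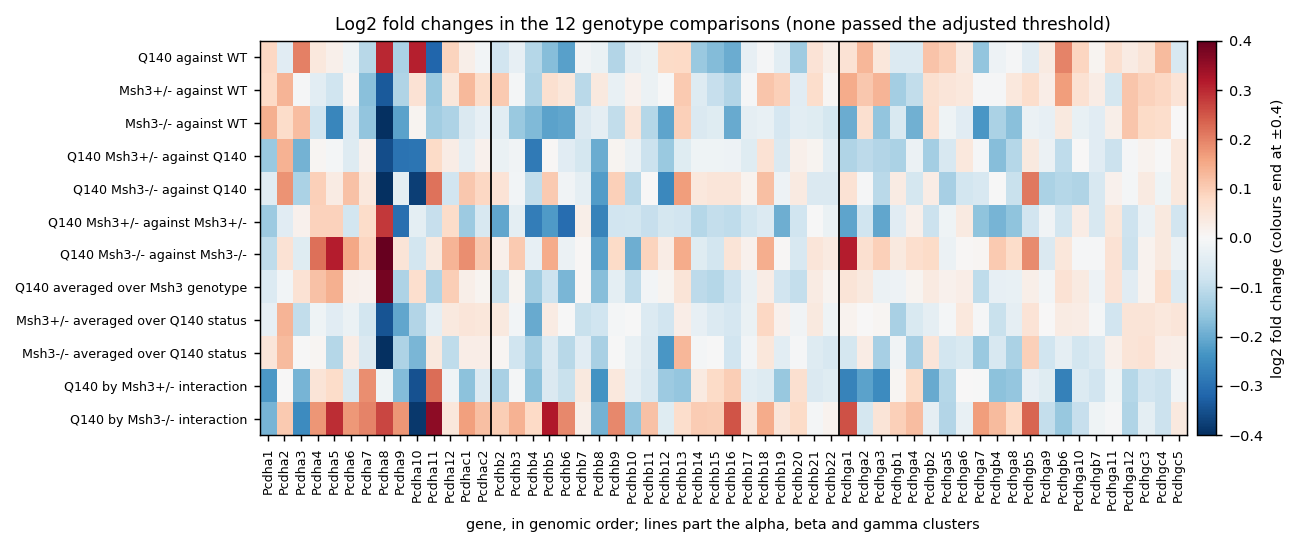
Log2 fold changes of the 56 tested members (columns, in genomic order, parted by cluster) in the 12 genotype comparisons (rows), from blue (lower) to red (higher), with colours ending at ±0.4. None passed the adjusted threshold, Pcdha8 holds the largest values, and the comparisons share libraries, so rows are not independent.

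Pcdhgc5, Pcdhgc3 and Pcdhac2 had the smallest standard errors of the 56 members in Q140 averaged over Msh3 genotype. There Pcdhgc5 had a log2 fold change of -0.054 (95% interval -0.099 to -0.009, adjusted p = 0.215), Pcdhgc3 0.014 (-0.035 to 0.063, adjusted p = 0.846) and Pcdhac2 0.010 (-0.042 to 0.063, adjusted p = 0.902). Pcdhgc4 had 0.069 (-0.004 to 0.142) and Pcdhac1 0.022 (-0.090 to 0.134). In Msh3-/- averaged over Q140 status Pcdhgc5 had 0.022 (-0.032 to 0.077), Pcdhgc3 0.057 (-0.004 to 0.117) and Pcdhac2 0.025 (-0.039 to 0.090). Over the 56 members the genotype means lay within 1.2-fold of each other for 44 members and more than 1.5-fold apart for 1, Pcdha8.

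Among variable isoforms the smallest p in a genotype comparison was that of Pcdhb12 in animals labelled Msh3-/-, averaged over Q140 status. Its lowest, median and highest values were 7.74, 11 and 13.8 CPM in Q140 Msh3-/- and 8.01, 10.3 and 11.9 in Msh3-/-, against 10.5, 12.4 and 13.7 CPM in Q140 and 8.94, 11.5 and 13.7 in WT. The groups overlapped, and the log2 fold change was -0.23 ± 0.06 (SE), with an adjusted p of 0.0805. The call was made in 5 of the 48 fits that left out 1 library: without Msh3-/- F2, Q140 Msh3-/- F4, Q140 Msh3-/- M2, Q140 M1 or WT M3, with adjusted p between 0.0209 and 0.049. An antisense gene, Gm37446, overlaps Pcdhb12 and had at most 8 counts.

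Pcdha8 had the largest estimate in the same comparison, -0.63 ± 0.2 (adjusted p = 0.138), but it is a low gene, with 8 to 113 counts per library. Its medians were 0.453 CPM in Q140 Msh3-/- and 0.427 in Msh3-/-, against 0.82 in Q140 and 0.616 in WT, with overlapping ranges. Pcdha5 had a positive estimate for Q140: its medians were 6.59 CPM in Q140, 6.54 in Q140 Msh3+/- and 6.8 in Q140 Msh3-/-, against 5.84 in Msh3+/-, 5.18 in Msh3-/- and 6.46 in WT. The averaged log2 difference was 0.14 ± 0.05 (adjusted p = 0.108). In Q140 against WT the log2 difference was only 0.02 ± 0.08 (edgeR, adjusted p = 0.964). In Q140 Msh3-/- against Msh3-/- it was 0.31 ± 0.08 (adjusted p = 0.403), and in Msh3-/- against WT, which share the Msh3-/- libraries, -0.26 ± 0.08 (adjusted p = 0.284). All these values missed the threshold.

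The other members of smallest p were spread over the clusters. Pcdhb16 had -0.20 ± 0.06 in Q140 against WT (adjusted p = 0.26) and -0.20 ± 0.06 in Msh3-/- against WT (adjusted p = 0.262). Both comparisons share the WT libraries, whose median was 13.7 CPM, against 11.6 CPM in Q140 and 11.7 CPM in Msh3-/-. Pcdhgb6 had 0.20 ± 0.06 in Q140 against WT (adjusted p = 0.297) and 0.17 ± 0.06 in Msh3+/- against WT (adjusted p = 0.963), with medians of 19.1 CPM in Q140 and 18.7 in Msh3+/-, against 16.4 in WT. Pcdhb20 had -0.10 ± 0.04 in Q140 averaged over Msh3 genotype (adjusted p = 0.162). Pcdhb5 and Pcdhb19 had -0.23 ± 0.08 and -0.19 ± 0.07 in Q140 Msh3+/- against Msh3+/-, with adjusted p of 0.431 and 0.448. Pcdhga1 had 0.31 ± 0.12 in Q140 Msh3-/- against Msh3-/- (adjusted p = 0.703), and Pcdhgc3 0.09 ± 0.04 in Msh3+/- against WT (adjusted p = 0.963). Pcdhb12 had -0.26 ± 0.08 in Q140 Msh3-/- against Q140 (adjusted p = 0.605). Pcdhb4 and Pcdha10 (-0.28 ± 0.14 and -0.29 ± 0.15 in Q140 Msh3+/- against Q140, adjusted p = 0.777 each), Pcdha10 again (-0.38 ± 0.15 in Q140 Msh3-/- against Q140, adjusted p = 0.688) and Pcdhb4 and Pcdha9 (-0.20 ± 0.10 and -0.21 ± 0.11 in Msh3+/- averaged over Q140 status, adjusted p = 0.607 and 0.614) had wider errors. In the test of any difference among the 6 genotypes the smallest adjusted p were 0.218 for Pcdha5 and 0.233 for Pcdhb16. In the interactions Pcdhgb6 had -0.27 ± 0.09 and Pcdhga3 -0.25 ± 0.12 with Msh3+/-, and Pcdhb16 0.25 ± 0.09 and Pcdhb5 0.32 ± 0.12 with Msh3-/-, none with an adjusted p below 0.999.

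Few genes that act on or beside the clusters were called between genotypes, as was true of all genes tested. Over all genes the share called ran from 0% in the interactions to 1.47% in Q140 averaged over Msh3 genotype. None of 28 CTCF, cohesin and chromatin regulators, among them Ctcf, Rad21 and Smchd1 (a repressor of clustered protocadherin genes in mice), was called in a genotype comparison. Of 23 signalling and processing partners, Marcks, a protein kinase C substrate that acts in dendrites downstream of gamma protocadherins in mice, rose by 0.13 ± 0.03 on the log2 scale in Q140 averaged over Msh3 genotype (edgeR, adjusted p = 0.00494), and the other 22 did not pass. Of 12 non-clustered protocadherins, Pcdh11x rose by 0.15 ± 0.04 there (adjusted p = 0.0446), a call kept in 6 of 10 alternatives and in 16 of 48 fits that left out 1 library, with adjusted p between 0.00952 and 0.165, and Pcdh17 was called in the test of any difference among the 6 genotypes (adjusted p = 0.0259). None of 49 tested genes within 1 Mb of the clusters was called in a genotype comparison. The astrocyte markers Slc1a2, Slc1a3 and Gja1 fell in Q140 averaged over Msh3 genotype, and their part in any value above was not tested.

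Sex, present in equal numbers in each genotype, was the contrast in which members were called. Pcdhb2, Pcdhb3, Pcdhb9, Pcdhb11 and Pcdha8 were higher in females, and Pcdhgb4 was lower. In female against male, averaged over genotypes, 6 of 56 members were called (5 higher, 1 lower), while 4.28% of all genes were called. By cluster, 4 of 21 beta members rose, 1 of 14 alpha members rose, 1 of 21 gamma members fell, and none of the 5 C-type isoforms was called.

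**Figure D4:**
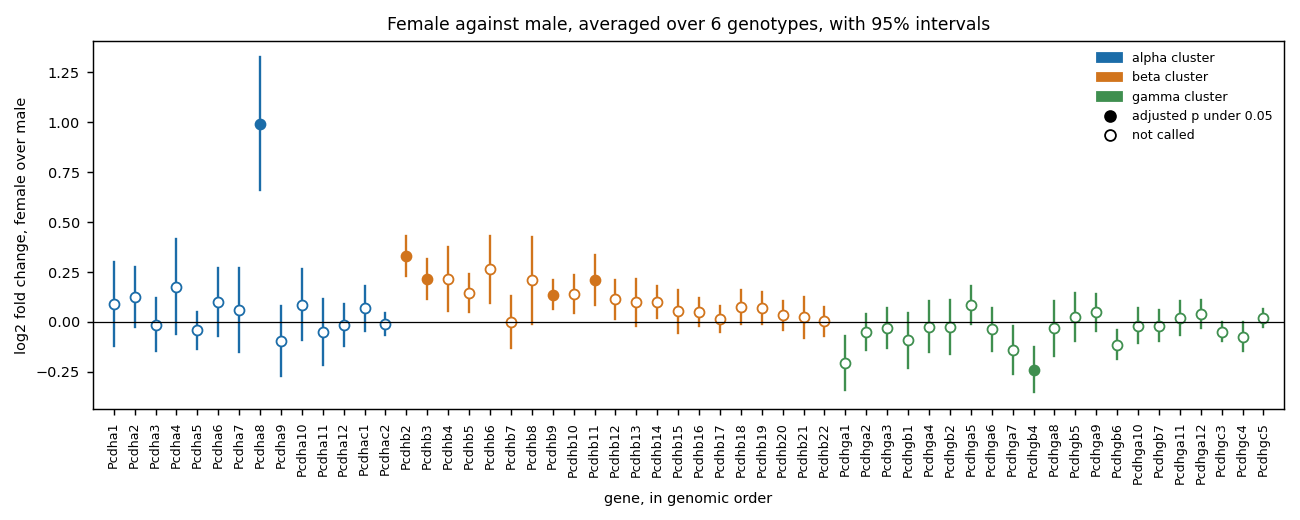
Log2 fold change of each tested member in 24 females over 24 males, averaged over genotypes, with 95% intervals, in genomic order and coloured by cluster; filled points passed the adjusted threshold. Pcdha8 has the largest value (0.99), 20 of 21 beta members lie above 0 and 15 of 21 gamma members below.

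Pcdhb2 separated the sexes best. Its lowest, median and highest values were 5.83, 7.43 and 9.16 CPM in females, against 4.5, 5.79 and 7.31 CPM in males. All 24 females lay above the male median, and 15 of them above the highest male. The log2 difference was 0.33 ± 0.05 (edgeR, adjusted p = 1.69e-05).

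Pcdha8 had 0.366, 0.872 and 2.06 CPM in females, against 0.162, 0.467 and 0.978 CPM in males (lowest, median and highest). The ranges overlapped, with 11 females above the highest male, and the log2 difference was 0.99 ± 0.17 (edgeR, adjusted p = 8.72e-05). The difference was uneven across genotypes: the mean was 1.27 CPM in Q140 females and 0.656 in Q140 males, but 0.645 CPM in Msh3+/- females and 0.6 in Msh3+/- males (n = 4 each).

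Pcdhb3 had 7.35, 11.2 and 13.2 CPM in females, against 7.77, 9.58 and 11.8 CPM in males, with a log2 difference of 0.22 ± 0.05 (edgeR, adjusted p = 0.00511). Pcdhb9, the beta member of highest level, had 16.9, 20.6 and 23.7 CPM in females, against 15.7, 18.5 and 23.2 CPM in males, with a log2 difference of 0.14 ± 0.04 (edgeR, adjusted p = 0.0148). Pcdhb11 had 5.19, 6.26 and 8.19 CPM in females, against 4.05, 5.6 and 7.35 CPM in males, with a log2 difference of 0.21 ± 0.06 (edgeR, adjusted p = 0.0407). These 3 overlapped between the sexes, and Pcdhb11 was called in 3 of 8 alternatives. Its call ended without a filter on low counts and in limma with name prefix as a random block (adjusted p = 0.0598, consensus correlation 0.1), each of which called 5 members. It also ended in 23 of 48 fits that left out 1 library, with adjusted p up to 0.0741.

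Pcdhgb4 was the gene that fell. It had 3.7, 5 and 6.18 CPM in females, against 4.46, 5.76 and 7.69 CPM in males. The ranges overlapped, with 2 of 24 females above the male median, and the log2 difference was -0.24 ± 0.06 (edgeR, adjusted p = 0.00629).

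**Figure D5:**
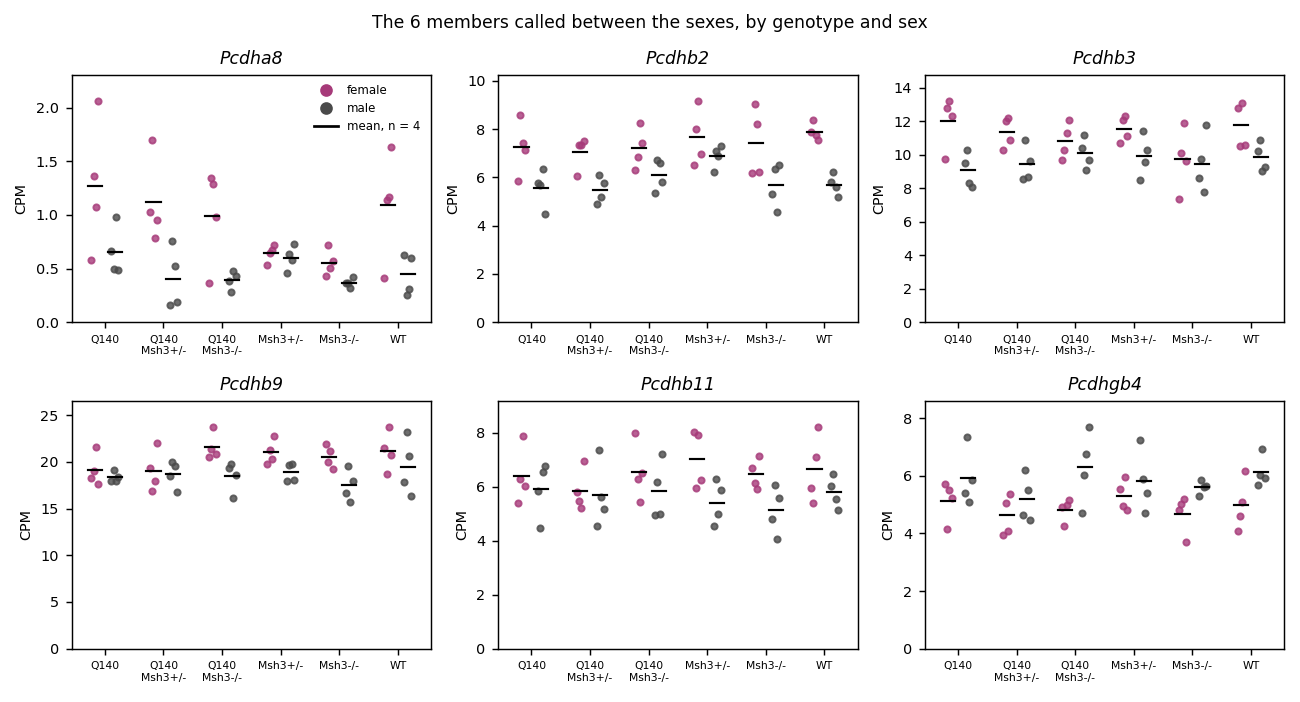
CPM of the 6 members called between the sexes, by genotype, with 1 point per library, females left of males, and bars at the mean of 4 libraries. Pcdhb2, Pcdha8, Pcdhb3, Pcdhb9 and Pcdhb11 have the higher female mean in all 6 genotypes, and Pcdhgb4 the lower.

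All 6 called genes kept their sign in the means of all 6 genotype groups. The calls came from these same libraries, so the shared sign is not separate support. Some of the differences were near 0. The log2 ratio of means was 0.02 for Pcdhb9 and 0.04 for Pcdhb11 in Q140 Msh3+/-, and 0.04 for Pcdhb3 in Msh3-/-. A test of any difference of the sex effect among the 6 genotypes, added after the sex comparison had been seen, called 0 of 56 members and 0% of all genes. In that test 0 members had an unadjusted p under 0.05 (864 genes in all did), and DESeq2 and limma called 0 members too; the smallest adjusted p, for Pcdhac2 and Pcdhb16, was 0.997. A difference of the Pcdha8 sex effect between genotypes was thus not detected with 4 libraries of each sex per genotype.

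Beyond the called genes, the estimates are given by cluster, with no test of a difference between clusters. Of 21 tested beta members 20 had estimates above 0, with a median log2 fold change of 0.10, whereas 15 of 21 gamma members lay below 0, with a median of -0.03, and the alpha median was 0.06; over all genes tested the median was 0. The 4 libraries in which choroid plexus or pituitary markers stood out were all male. Without them the gamma median was -0.004, with 9 of 21 above 0, and the alpha median 0.033. The beta median was then 0.107, with 20 of 21 above 0. Females had the higher mean in at least 5 of the 6 genotypes for 14 beta, 5 alpha and 1 gamma members. They had the lower mean in at least 5 for 0 beta, 2 alpha and 7 gamma members. The same counts were not made over all genes. The beta total was higher in females of all 6 genotypes, from 1.05-fold in Q140 and Q140 Msh3-/- to 1.14-fold in WT. The gamma total was 480 ± 21 CPM in females and 487 ± 19.8 in males, and the alpha total 101 ± 6.31 in females and 100 ± 6.43 in males (SD, n = 24 each).

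Within the beta cluster the estimates were larger at the 5′ end. The 13 members from Pcdhb2 to Pcdhb14 had a median of 0.15, and 4 of them were called. The 8 from Pcdhb15 to Pcdhb22 ran between 0.003 and 0.075, and none was called. Over all genes tested 4.28% were called. This division was chosen after the values had been seen and carries no test. Pcdhb7, inside the first stretch, had a log2 fold change of 0.00 (95% interval -0.13 to 0.13), and Pcdhb6 had 0.26 ± 0.08 and Pcdhb5 0.15 ± 0.05, short of the threshold at adjusted p of 0.0621 and 0.0632. In the gamma cluster Pcdhga1, its most 5′ gene, had -0.21 ± 0.07 (adjusted p = 0.0717) and Pcdhgb6 -0.12 ± 0.04 (adjusted p = 0.0574).

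The C-type isoforms differed little between the sexes. Pcdhgc5 had a median of 141 CPM in females and 140 CPM in males, and a log2 fold change of 0.02 (95% interval -0.02 to 0.07). Pcdhac2 had -0.01 (-0.06 to 0.04), Pcdhgc3 -0.048 (-0.097 to 0.001), Pcdhgc4 -0.075 (-0.148 to -0.002, adjusted p = 0.271) and Pcdhac1 0.07 (-0.04 to 0.18).

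Markers of several cell types were called between the sexes beside these genes. Oligodendrocyte markers summed to 1560 to 2390 CPM in females and 1350 to 2000 CPM in males, and 3 of 6 (Mobp, Mag and Mbp) rose, with all 6 estimates above 0. Slc17a7, the vesicular glutamate transporter of cortical excitatory neurons, fell by 0.065 ± 0.0178 on the log2 scale in females (SE, edgeR, adjusted p = 0.0235), while 2 of the 5 genes of its list had estimates above 0. Blood markers summed to 0.0699 to 22.7 CPM in females and 0.12 to 7.33 in males. All 4 that were tested, of 5, were called higher in females (Hba-a1, Hba-a2, Hbb-bs and Hbb-bt). Pituitary markers summed to 0.419 to 3.65 CPM in females and 0.273 to 45.4 in males. Of 6, only 3 were tested, and 2 of these were called lower in females (Gh and Prl). The libraries in which pituitary markers stood out were all male. Among other lists, Pvalb, C1qa and Olig1 rose and Vip, Gja1 and Calb2 fell, and the estimates of each of their lists lay on both sides of 0. Their part in the differences of the protocadherin genes was not tested. In bulk tissue, fewer cells that express an isoform and less RNA per cell cannot be told apart.

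Without the 4 libraries, all male, in which markers of choroid plexus or pituitary stood out, 5 of the 6 genes were still called. Pcdhb11 was lost (edgeR, adjusted p = 0.1). The same 5 were called without WT F3 and WT F4, where Pcdhb11 had an adjusted p of 0.112. Plate columns were unevenly filled, with 6 females and 2 males in column 1 and 2 females and 6 males in column 6. With plate column as a factor, the same 5 genes and Pcdhga1 were called, and Pcdhb11 was lost (edgeR, adjusted p = 0.0602). Plate rows were uneven too: rows A and G each held 1 female and 5 males, and row F held 5 females and 1 male. Plate row was not fitted, so its part in the sex calls was not tested.

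Of the regulators 2 of 28 and of the neighbours 3 of 49 were called between the sexes, while 4.28% of all genes were called. Of the 28 regulators, Stag1, a cohesin subunit, fell by 0.08 ± 0.02 on the log2 scale in females (edgeR, adjusted p = 0.0153) and Trim28, a corepressor of KRAB zinc finger proteins, fell by 0.07 ± 0.02 (adjusted p = 0.0201). Ctcf had -0.02 ± 0.02 and Smchd1 0.02 ± 0.02, with adjusted p of 0.74 and 0.748. Of 49 neighbouring genes tested, Fgf1 rose by 0.16 ± 0.03 (adjusted p = 0.0019) and Psd2 by 0.09 ± 0.03 (adjusted p = 0.0258), while Diaph1, the gene next to the gamma cluster, fell by 0.09 ± 0.02 (adjusted p = 0.0197). Of 8 alternatives, the call of Stag1 was kept in 7 and those of Psd2 and Diaph1 in 5 each, with adjusted p up to 0.0617, 0.0929 and 0.0992. Fgf1 and Trim28 were called in all 8. None of the 12 non-clustered protocadherins or 23 partners was called.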

How the data were processed

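RNA from 48 cortex libraries was extracted with an RNeasy kit and made into TruSeq stranded libraries, per the labels' protocols. STAR 2.7.5c, SAMtools 1.10, HTSeq 0.12.3 and the build GRCm38 (mm10) are named in the submitters' processing notes; the annotation release and counting mode are not given in the sources used here. The authors deposited raw counts per gene and, separately, FPKM per gene. The file gives the symbols Pcdha11 and Pcdhga8 to more than one gene; by gene identifier the second of each is Pcdha10 and Pcdhgc4. CPM were computed from the deposited counts with TMM-scaled library sizes, and unshared exon length from GENCODE M21. Totals of 37.7 M to 68.3 M counts (median 48.6 M) set the precision, and intervals cover these libraries only.

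Counts were fitted with edgeR 4.0.16 (quasi-likelihood, R 4.3.3), with 6 genotype groups and an additive sex term, over 19547 genes kept by a minimum count of 10 and a minimum total of 15; 14658 of 48795 genes had 0 counts in every library. Calls are at a Benjamini-Hochberg adjusted p under 0.05 over all tested genes. The FPKM were used for levels only. DESeq2 1.42.0, limma 3.58.1 with the libraries' name prefix as a random block, other filters and scalings, a plate column factor and leaving out libraries were alternatives. The code was tested on simulated data. The labels do not say in so many words that each library is a separate animal, so p-values measure the spread between libraries.

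The members, the gene lists and the tests were chosen with earlier results of these data known. Genes named are the C-type isoforms, the members of highest and lowest FPKM and of most and least variation in each cluster, called members, those of smallest p in each comparison, called genes of the lists, Msh3 and Htt. Pcdhb5, Pcdhb6, Pcdhb7, Pcdhga1 and Pcdhgb6 in the sex comparison, and the libraries with most extremes, were named after their values were seen. Replicate numbers are not stated to mark pairs, and most same-numbered libraries did not deviate together, so they were not used as pairs in the main fits. The summed level of 1 marker list is not reported here.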

Additional observations from a re-analysis of the deposited data

Results flagged for a closer look

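In 60 groups of 8 libraries (cluster totals and the members called between the sexes, by genotype) the gap between the most extreme library and its nearest neighbour was set against the whole range of the group by Dixon's criterion, which chance exceeds in about 1 in 20 groups. The gamma total of Msh3-/- F1 was 439 CPM, below the next lowest Msh3-/- library at 476 CPM. The C-type total of Msh3-/- F3 was 296 CPM, above the next highest at 279 CPM. Pcdhb9 in Q140 F3 had 21.6 CPM, above the next highest Q140 library at 19.1 CPM. These flags are about as many as chance alone would give in 60 groups. No member was called in the test of any difference of the sex effect among the genotypes.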

How the results depend on the processing

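In 13 of the 15 comparisons the count of called members was within 1.5 times the reported one under every alternative that was run. In Msh3-/- averaged over Q140 status the count was 1, not 0, with DESeq2 and with a replicate block, Pcdhb12 in both (adjusted p = 0.0165 with the block), and 0 to 1 when 1 library was left out. In female against male the count was 10, not 6, with DESeq2, adding Pcdhb5, Pcdhb6, Pcdhga1 and Pcdhgb6; it was 5 to 9 when 1 library was left out and 5 to 7 under the other alternatives. The replicate numbers are not stated to pair the libraries. The median correlation was -0.0207 in 120 same-numbered pairs and -0.0257 in 360 pairs of other numbers within a sex. Of the 120 same-numbered pairs 6 exceeded 0.1, and of the 360 other pairs also 6, which is a smaller share. The highest values were 0.398 and 0.163. Of 48 libraries 20 correlated best with a library of their own number, and the share expected without pairing was not computed. A few same-numbered libraries may thus have deviated together, and the main fits had no block. The log2 ratios of cluster totals between groups moved by at most 0.083 (alpha), 0.054 (beta) and 0.04 (gamma) under the alternatives. Such shifts are not small beside the ratios. The largest alpha ratio was 0.108, in Q140 Msh3-/- against Msh3-/-. Leaving out WT F3 and WT F4 was chosen after seeing the data. Totals over only those members that share no exon with another annotated gene could be computed for the beta cluster only. Depth limits Pcdha8 most, with as few as 8 counts in a library, and Pcdhb1 and Pcdhgb8 were too low to test. The causes of these differences were not tested.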
